A study of Homo sapiens with 24 samples.

Results

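Flp-In T-REx 293 cells with the empty vector were profiled by RNA-seq in 5 of the 24 libraries of the series. These libraries were chosen by their labels alone, as the empty vector columns of the exon count tables of batch 1 (2 libraries) and batch 2 (3 libraries). Flp-In T-REx 293 is a line derived from HEK293, a human embryonic kidney line. In both batches the cells had been transduced with a lentiviral vector that carried a neomycin resistance cassette and GFP behind a doxycycline-inducible CMV promoter and an intron-containing EF1α 5′UTR, with no miRNA hairpin in that intron. The cells of both batches had received 1 µg/mL doxycycline for 7 days and had been selected for 6 days in 1 mg/mL geneticin, so the baseline measured here is that of transduced, selected and induced cells with a GFP cassette and no added miRNA. Each replicate came from its own transduction and culture. The other libraries of batch 1 expressed miR-1 or miR-122, and those of batch 2 a miRNA of muscle (miR-133a), of leukocytes (miR-155) or of the stem cell family (miR-302a, miR-372, miR-373). Cells without the vector or without doxycycline were not analysed here.

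A miRNA guides an Argonaute protein to mRNAs by pairing of its seed, bases 2 to 8 counted from its 5′ end, with short sites that lie mostly in 3′UTRs, and the bound mRNA is then deadenylated, decapped and degraded or translated less. A miRNA that is introduced into a line can therefore act on the transcripts that this line already holds. Each of the 7 miRNAs of the study is best known from another kind of cell than kidney: miR-1 and miR-133a from heart and skeletal muscle, miR-122 from hepatocytes, miR-155 from leukocytes, and miR-302a, with miR-372 and miR-373, from embryonic stem cells.

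The mature sequences (RefSeq, GRCh38.p14) are shown because their seeds define which transcripts of the empty vector cells hold a match. The seed is in capitals, and the last 3 miRNAs share a seed, which leaves 5 seed families.
hsa-miR-1-3p: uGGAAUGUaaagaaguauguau
hsa-miR-122-5p: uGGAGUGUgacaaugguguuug
hsa-miR-133a-3p: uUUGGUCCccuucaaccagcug
hsa-miR-155-5p: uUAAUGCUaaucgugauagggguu
hsa-miR-302a-3p: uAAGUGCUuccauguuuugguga
hsa-miR-372-3p: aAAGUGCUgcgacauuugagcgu
hsa-miR-373-3p: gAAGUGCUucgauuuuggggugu

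The counts over exons summed to 20756681 and 21138186 reads in the batch 1 libraries and to 13200892, 15066257 and 14141696 reads in the batch 2 libraries. Every pair of libraries differed beyond counting error, by a chi-square that, divided by its degrees of freedom, was 4.14 for the batch 1 libraries, 2.99 to 8.13 within batch 2 and 4.63 to 13.2 between batches, so each library was taken as a separate replicate. Batch 2 replicate 1 stood farthest from the others, with its pairs reaching 8.13 within its batch and 13.2 between batches. Across the 12812 expressed genes, log2 TPM of any pair of libraries correlated with a Pearson coefficient between 0.991 and 0.997, which describes genes and not replicates. The median SD of log2 TPM over replicates was 0.0563 in batch 1 (n = 2) and 0.101 in batch 2 (n = 3), and these n apply to every mean and SD given per batch.

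Levels are given as TPM, counts divided by feature length and scaled to the same total in each library, to allow comparison between genes. The feature length is 1 deposited value per gene and not that of the isoform used, which was not measured. Where the transcript used is shorter than the feature, TPM is too low, so comparisons between genes are approximate. A gene was called expressed where it exceeded 1 CPM (counts scaled to library size) in all 5 libraries. By this rule 12812 of 29794 genes were expressed (43.0%), including 12207 of 18740 protein-coding genes (65.1%) and 349 of 6719 long noncoding RNA genes (5.19%). A further 9480 genes had 0 counts in every library, and 3 counts over the 84303712 counts of the 5 libraries correspond to 0.0356 CPM, the level that a count of 0 allows for counting error alone. Taken by batch, 13089 genes exceeded 1 CPM in both batch 1 libraries and 12878 in all 3 batch 2 libraries. Only 48 genes did so in every library of batch 1 and none of batch 2, and 14 in every library of batch 2 and none of batch 1. The median expressed gene stood at 29.8 TPM, with quartiles at 11.7 and 68.9 TPM, and the highest at 15208 TPM. The 100 genes with the highest TPM in a library held between 20.5% and 22.1% of its summed TPM, and the 1000 highest between 51.1% and 53.5%.

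The highest levels belonged to genes of oxidative phosphorylation, translation and glycolysis. Genes not matched to a symbol, among them 5 of 13 listed mitochondrial genes, could not be ranked. Of the 20 genes with the highest TPM, 7 are encoded by the mitochondrial genome, led by MT-CO1, a core subunit of cytochrome c oxidase, at 15735 and 15805 TPM in batch 1 and 15776, 13794 and 14369 TPM in batch 2. Another 7 encode ribosomal proteins, led by RPS16 at 5054 and 5218 TPM in batch 1 and 4905, 5255 and 5365 TPM in batch 2. EEF2, the elongation factor that moves the ribosome along the mRNA, was at 5042 and 4878 TPM in batch 1 and 4372, 5408 and 5119 TPM in batch 2, with its lowest value in batch 2 replicate 1. The glycolytic enzymes ENO1, GAPDH and LDHB were also among the 20, with ENO1 at 3918 and 3913 TPM in batch 1 and 3593, 3898 and 3899 TPM in batch 2. CKB, brain-type creatine kinase, was at 3257 and 3408 TPM in batch 1 and 3082, 3384 and 3358 TPM in batch 2, and the cytoskeletal actin ACTG1 was at 3105 and 3177 TPM in batch 1 and 2752, 3169.7 and 3146 TPM in batch 2. The values of the batches overlapped for MT-CO1, RPS16, EEF2, CKB and ACTG1. They did not for ENO1, whose batch means differed 1.03-fold, nor for GAPDH, at 2994 and 3002 TPM in batch 1 and 2726, 2791 and 2794 TPM in batch 2, and LDHB, at 2434 and 2489 TPM in batch 1 and 2781, 2563 and 2641 TPM in batch 2, and the batches did not overlap in CPM for 35.4% of all genes tested between them.

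Lists of pathway and lineage genes were then read for their levels. Over the 38 lists, 538 of 690 distinct measured genes were expressed, beside 43.0% of all genes and 65.1% of protein-coding genes. All 44 large-subunit ribosomal protein genes were expressed, with a median of 791 TPM, as were 31 of 32 of the small subunit, with a median of 688 TPM. Levels within the ribosome, whose proteins are made in equal amounts, ran from 17.3 TPM for RPL21 to 4268 TPM for RPL8 in the large subunit. Reads were counted above a minimum mapping quality, so genes with near-identical copies elsewhere, among them many ribosomal protein genes, EEF1A1 and the pair HSPA1A and HSPA1B, have uncertain levels. The feature length is a further limit, as for RPL28, with 6540 bases and 211 TPM. EEF1A1, among the most abundant proteins of dividing cells, had 674 ± 1.34 TPM (batch 1) and 674 ± 28.1 TPM (batch 2). The 8 measured mitochondrial genes had a median of 6163 TPM and took between 1.91% and 2.20% of the counts. This share leaves out the 5 listed mitochondrial genes that were not matched.

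Energy metabolism and protein folding followed. Of the 20 glycolysis genes 18 were expressed, and the muscle mutase PGAM2 was among the 2 that were not. Isoform choice was unequal. The pyruvate kinase gene PKM was at 1517 ± 16.1 TPM (batch 1) and 1476 ± 95.6 TPM (batch 2), the ubiquitous aldolase ALDOA at 806 ± 28.4 TPM (batch 1) and 739 ± 45.1 TPM (batch 2), ENO2, the neuronal enolase, at 94.6 ± 2.42 TPM (batch 1) and 85.4 ± 2.04 TPM (batch 2), and ENO3, the muscle enolase, at 11.05 ± 0.106 TPM (batch 1) and 10.3 ± 0.683 TPM (batch 2). All 17 genes of the citric acid cycle were expressed, between 44.7 TPM for SUCLG2 and 368 TPM for MDH2. Among the chaperones, HSP90AA1 and HSP90AB1, the cytosolic HSP90 genes, were the highest, with 2022 ± 28.3 TPM (batch 1) and 2170.5 ± 180.0 TPM (batch 2) and 1945 ± 0.818 TPM (batch 1) and 2070.4 ± 71.3 TPM (batch 2). Of the 16 proteasome core genes measured 14 were expressed. The constitutive catalytic subunits PSMB5 and PSMB6 were at 319 ± 19.6 TPM (batch 1) and 321 ± 8.42 TPM (batch 2) and 424 ± 11.9 TPM (batch 1) and 414 ± 11.7 TPM (batch 2). The immunoproteasome subunits PSMB8 and PSMB9, which interferon induces, did not exceed 1 CPM in all libraries. PSMB8 was at 0.573 ± 0.286 TPM (batch 1) and 0.774 ± 0.174 TPM (batch 2). PSMB9 reached at least 1 TPM in every library, and by that rule 15 of the 16 genes were expressed.

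The cells expressed the whole list of 30 cell cycle genes, with a median of 206 TPM. PCNA, the clamp of the replicative polymerases, was the highest at 868 and 898 TPM in batch 1 and 941, 820.0 and 866 TPM in batch 2. MKI67, the proliferation marker, was at 196 and 149.6 TPM in batch 1 and 151, 207 and 158 TPM in batch 2 and varied within both batches, with SDs of 32.9 and 30.7 TPM. The 12 genes of the list of CDK inhibitors and other brakes on the cycle were all expressed, from 4.37 TPM for CDKN1C to 219 TPM for CDKN2A, whose protein p16 blocks CDK4 and CDK6. CDKN1A, which encodes the CDK inhibitor p21, and MDM2, a ubiquitin ligase, were at 101 ± 0.182 TPM (batch 1) and 87.2 ± 3.94 TPM (batch 2) and 88.4 ± 3.196 TPM (batch 1) and 81.6 ± 3.63 TPM (batch 2). All 24 genes of cholesterol synthesis and uptake were expressed, led by FDPS, which encodes farnesyl diphosphate synthase, at 338 ± 4.89 TPM (batch 1) and 316 ± 7.64 TPM (batch 2). The 11 genes of Polycomb repressive complex 2 and its partners were expressed too, with the methyltransferase EZH2 at 117 ± 2.98 TPM (batch 1) and 112 ± 7.07 TPM (batch 2). Beside these lists, the share expressed was 65.1% of protein-coding genes and 43.0% of all genes. Of the 19 immediate early and stress genes measured, 17 were expressed, with JUN at 412 ± 4.23 TPM (batch 1) and 496 ± 10.5 TPM (batch 2) and ASNS, which makes asparagine, at 396 ± 2.499 TPM (batch 1) and 441 ± 12.1 TPM (batch 2). FOS was low, at 1.42 ± 0.0813 TPM (batch 1) and 0.862 ± 0.444 TPM (batch 2). Of the 11 matched histone genes whose transcripts mostly lack a poly(A) tail, 5 exceeded 1 CPM in all of these poly(A)-selected libraries.

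**Figure D1:**
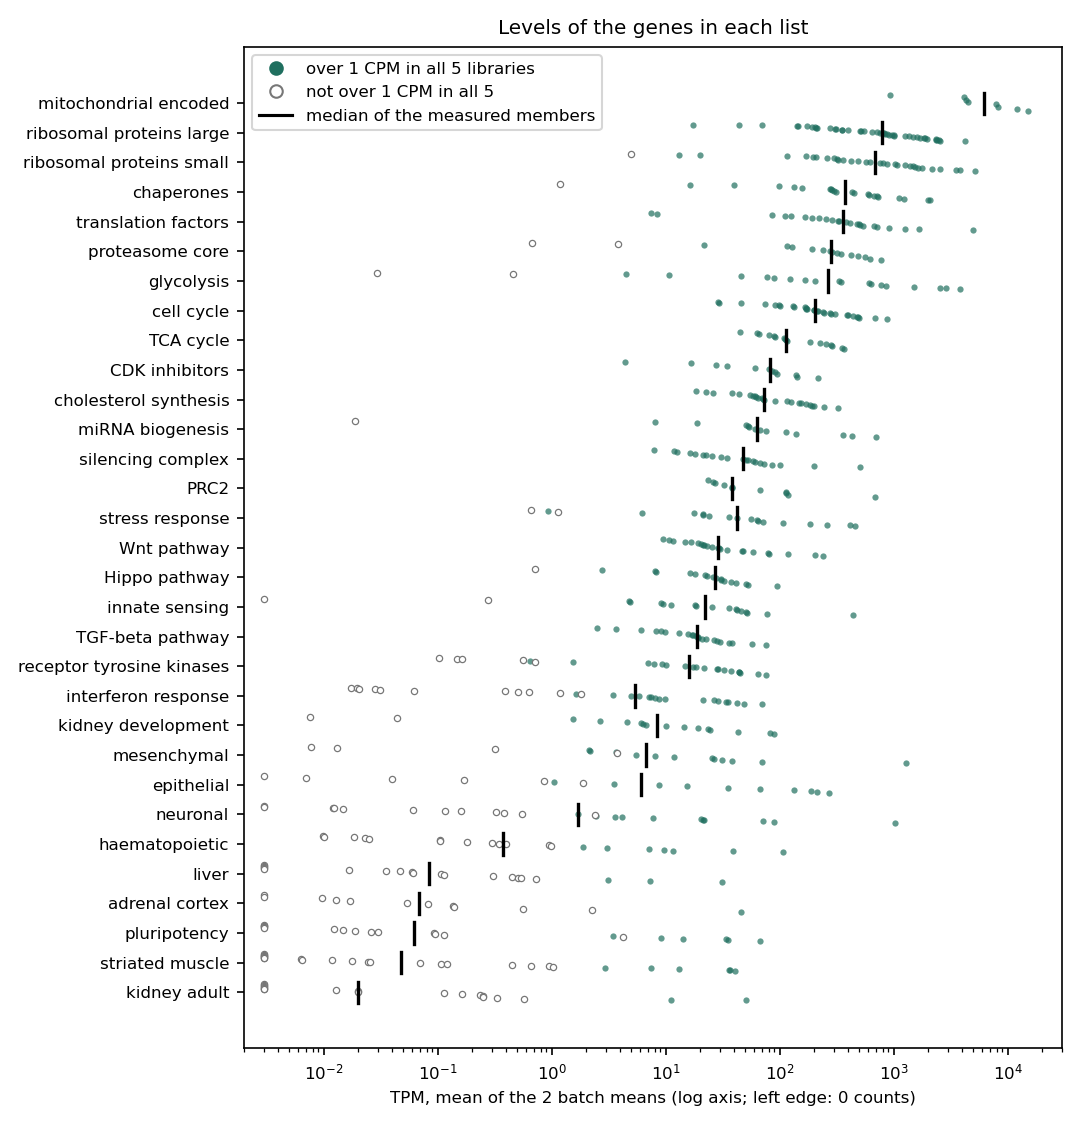
Level of each gene in 31 of the lists, as the mean of the batch means in TPM on a log axis, with the median of the measured members of each list as a bar. Filled points exceeded 1 CPM in all 5 libraries, open points did not, and genes with 0 counts sit at the left edge. Lists of translation, metabolism and cell division lie to the right with few open points, and the lists of differentiated tissues lie at the left.

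The label of the line was checked against lineage markers. Transcription factors of the developing kidney were present, and genes of the differentiated nephron were mostly not. Of the 16 measured genes of kidney development 14 were expressed. SIX2, which keeps nephron progenitors undifferentiated, was at 16.3 and 17.6 TPM in batch 1 and 10.2, 13.8 and 12.3 TPM in batch 2. SIX2 was lower in every batch 2 library than in both batch 1 libraries, at a log2 fold change of -0.43 (SE 0.127, adjusted p = 0.114 by the quasi-likelihood test of edgeR), which did not pass the threshold. The collecting duct and nephric duct factor GATA3 was at 23.2 ± 0.0735 TPM (batch 1) and 24.1 ± 2.11 TPM (batch 2), SALL1 at 25.9 ± 0.777 TPM (batch 1) and 23.3 ± 1.82 TPM (batch 2), WT1, which acts in podocytes and their precursors, at 6.504 ± 0.288 TPM (batch 1) and 6.17 ± 0.631 TPM (batch 2), EYA1, a partner of SIX2, at 6.65 ± 0.419 TPM (batch 1) and 5.48 ± 0.465 TPM (batch 2), and EMX2, needed for the early urogenital system, at 9.43 ± 0.734 TPM (batch 1) and 10.6 ± 0.953 TPM (batch 2). The duct and nephron factor PAX2 was low, at 4.91 and 3.76 TPM in batch 1 and 4.8998, 4.86 and 4.85 TPM in batch 2. Its paralog PAX8 was close to absent, with 3 and 1 counts in batch 1 and 0, 1 and 0 counts in batch 2. The posterior HOX genes HOXA11 and HOXD11, which pattern the metanephric kidney, were the highest of the list at 82.5 ± 0.0537 TPM (batch 1) and 80.7 ± 3.71 TPM (batch 2) and 99.8 ± 18.1 TPM (batch 1) and 77.4 ± 8.803 TPM (batch 2). LHX1, a further kidney factor, could not be matched to the annotation and were not analysed here.

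Of the 19 genes of differentiated kidney segments only PODXL and LRP2 were expressed, against 65.1% of protein-coding genes and 43.0% of all genes. PODXL, which coats podocytes and also other cells, was at 55.1 and 51.3 TPM in batch 1 and 47.4, 51.8 and 48.4 TPM in batch 2. LRP2, the endocytic receptor megalin of the proximal tubule, was at 13.3 and 11.2 TPM in batch 1 and 9.69, 11.6 and 8.91 TPM in batch 2, while its partner CUBN was at 0.185 ± 0.0769 TPM (batch 1) and 0.144 ± 0.0544 TPM (batch 2). The other 17 did not exceed 1 CPM in all 5 libraries. Among these, the defining genes of the thick ascending limb (UMOD), the collecting duct (AQP2), the proximal tubule transporters SLC34A1, SLC22A6 and SLC22A8, and the kidney cadherin CDH16 had 0 counts in all 5 libraries, and NPHS1, encoding nephrin of the slit diaphragm, was at 0.258 ± 0.0326 TPM (batch 1) and 0.214 ± 0.0651 TPM (batch 2).

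Genes of neurons were expressed in part. Of 23 measured neuronal and neuroendocrine genes 11 were expressed (47.8%), near the 43.0% of all genes and below the 65.1% of protein-coding genes. UCHL1, a ubiquitin hydrolase abundant in neurons, was at 1019 and 1070.1 TPM in batch 1 and 1042, 981 and 1009 TPM in batch 2. INA, which encodes the neuronal intermediate filament α-internexin, was at 72.2 and 72.03 TPM in batch 1 and 65.98, 70.8 and 74.02 TPM in batch 2, and its highest library exceeded its lowest 1.12-fold. Synaptic and adhesion genes followed, with SYP at 21.6 ± 0.776 TPM (batch 1) and 21.9 ± 1.37 TPM (batch 2), NCAM1 at 21.9 ± 1.66 TPM (batch 1) and 18.7 ± 1.998 TPM (batch 2) and SNAP25 at 9.01 ± 0.157 TPM (batch 1) and 6.65 ± 1.09 TPM (batch 2). NEFM, a neurofilament gene, was at 1.74 ± 0.323 TPM (batch 1) and 1.66 ± 0.155 TPM (batch 2), and NEFH, at 0.466 ± 0.0699 TPM (batch 1) and 0.634 ± 0.142 TPM (batch 2), did not exceed 1 CPM in all libraries. TUBB3, the neuronal tubulin, was at 2.42 ± 0.808 TPM (batch 1) and 2.395 ± 0.641 TPM (batch 2). By contrast, DCX, a marker of migrating neurons, and TH, the first enzyme of catecholamine synthesis, had 0 counts in every library, STMN2 and ELAVL4 were at 0.0621 ± 0.002005 TPM (batch 1) and 0.0605 ± 0.0526 TPM (batch 2) and 0.0152 ± 0.0215 TPM (batch 1) and 0.0144 ± 0.0249 TPM (batch 2), and NEFL could not be matched and was not analysed here.

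Genes of the adrenal cortex were near the limit of detection. Of 12 genes only FDX1 was expressed, at 44.9 ± 1.396 TPM (batch 1) and 46.1 ± 0.795 TPM (batch 2), and it encodes a ferredoxin that many cells use. The steroidogenic genes STAR, CYP11A1 and CYP17A1 were at 0.586 ± 0.0189 TPM (batch 1) and 0.536 ± 0.134 TPM (batch 2), 0.225 ± 0.164 TPM (batch 1) and 0.0541 ± 0.04704 TPM (batch 2) and 0.119 ± 0.0593 TPM (batch 1) and 0.152 ± 0.0649 TPM (batch 2), and NR5A1, the factor that drives them, was at 0.0648 ± 0.0324 TPM (batch 1) and 0.102 ± 0.0941 TPM (batch 2). CYP21A2 and MC2R, the ACTH receptor gene, had 0 counts in all libraries. Of the rest, INHA was at 1.797 ± 0.0833 TPM (batch 1) and 2.71 ± 0.661 TPM (batch 2), and NR0B1, HSD3B2, CYP11B1 and CYP11B2 had 0 counts in both batch 1 libraries and at most 2 counts in a batch 2 library.

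Markers of epithelia and of mesenchyme were present side by side. The simple epithelial keratins KRT8, KRT18 and KRT19 were at 185 ± 0.607 TPM (batch 1) and 191 ± 4.11 TPM (batch 2), 133.3 ± 1.09 TPM (batch 1) and 137 ± 5.51 TPM (batch 2) and 266 ± 10.4 TPM (batch 1) and 276 ± 3.82 TPM (batch 2), and the adhesion protein gene EPCAM was at 194 and 199 TPM in batch 1 and 244, 210.1 and 222 TPM in batch 2. E-cadherin (CDH1), the junction protein of epithelia, was at 9.79 and 8.15 TPM in batch 1 and 8.53, 8.07 and 8.75 TPM in batch 2, while N-cadherin (CDH2) was at 75.6 and 70.3 TPM in batch 1 and 67.4, 65.03 and 65.7 TPM in batch 2. VIM, the mesenchymal intermediate filament, was the highest of either list at 1272 and 1267 TPM in batch 1 and 1271, 1323 and 1256 TPM in batch 2. The repressors of E-cadherin ZEB1 and TWIST1 were at 28.03 ± 3.15 TPM (batch 1) and 25.3 ± 1.003 TPM (batch 2) and 25.9 ± 2.14 TPM (batch 1) and 25.05 ± 2.61 TPM (batch 2), whereas SNAI2 was at 0.257 ± 0.008301 TPM (batch 1) and 0.374 ± 0.0193 TPM (batch 2). The basal keratin KRT5 had 0 counts in every library, GRHL2, an epithelial transcription factor, was at 0.0142 ± 0.02003 TPM (batch 1) and 0 TPM (batch 2), and the fibroblast genes COL1A2 and THY1 were at 0.0139 ± 0.0196 TPM (batch 1) and 0.0125 ± 0.0217 TPM (batch 2) and 0.0156 ± 0.0221 TPM (batch 1) and 0 TPM (batch 2). In all, 10 of 16 epithelial and 12 of 16 mesenchymal genes were expressed (62.5% and 75%, beside 65.1% of protein-coding genes). Of the 25 members tested between the batches 0 had an edgeR adjusted p under 0.05 (5 had an unadjusted p under 0.05, and DESeq2 called 0). Over all tested genes edgeR called 0.938%, and 17.1% had an unadjusted p under 0.05.

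**Figure D2:**
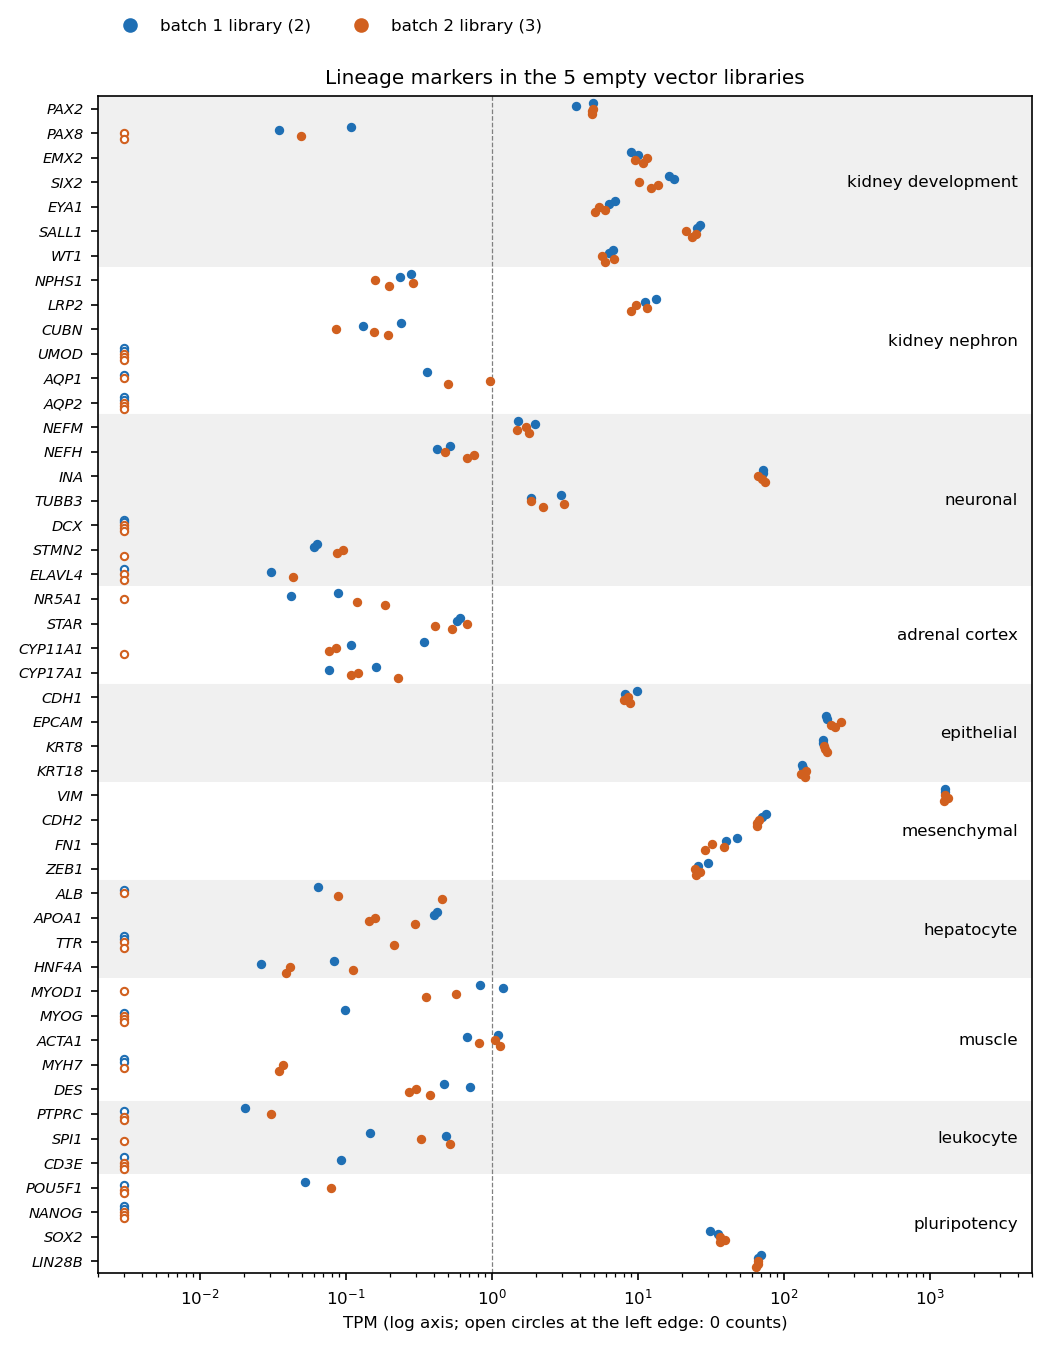
TPM of lineage markers in each of the 5 empty vector libraries on a log axis, grouped by lineage, with batch 1 in blue and batch 2 in orange, the dashed line at 1 TPM and open circles at the left edge for 0 counts. Markers of kidney development other than PAX8, LRP2, NEFM, INA, TUBB3, the epithelial and mesenchymal markers, SOX2 and LIN28B lie above 1 TPM in every library, and those of adrenal cortex, hepatocytes and leukocytes lie below it in every library.

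For the tissues in which the 7 miRNAs are known to act, defining genes were mostly absent. The share expressed was 15% in the liver list, 23.1% in striated muscle, 35% in leukocytes and 30% in pluripotency, against 65.1% of protein-coding genes. In the liver list 3 of 20 genes were expressed, the transcription factors FOXA1 at 33.5 ± 0.167 TPM (batch 1) and 28.4 ± 1.42 TPM (batch 2) and FOXA2 at 7.33 ± 0.0771 TPM (batch 1) and 7.17 ± 0.377 TPM (batch 2), and the asialoglycoprotein receptor gene ASGR1 at 3.59 ± 0.611 TPM (batch 1) and 2.71 ± 0.577 TPM (batch 2). Albumin (ALB) was at 0.0323 ± 0.0456 TPM (batch 1) and 0.181 ± 0.242 TPM (batch 2), HNF4A, the master regulator of hepatocytes, at 0.0544 ± 0.0398 TPM (batch 1) and 0.06402 ± 0.0415 TPM (batch 2), and FGA, FGB, SERPINA1 and CYP7A1 had 0 counts in all libraries. In the striated muscle list 6 of 26 genes were expressed. The cardiac transcription factor genes NKX2-5 and GATA4 were at 37.6 and 41.6 TPM in batch 1 and 37.9, 44.4 and 42.99 TPM in batch 2 and 41.9 and 38.6 TPM in batch 1 and 26.7, 36.7 and 34.2 TPM in batch 2, and the troponin genes TNNT1 of slow muscle and TNNI3 of heart were at 31.4 ± 1.41 TPM (batch 1) and 40.9 ± 1.91 TPM (batch 2) and 11.1 ± 0.957 TPM (batch 1) and 15.4 ± 0.996 TPM (batch 2). MYOD1, the myogenic determination factor, was at 1.01 ± 0.255 TPM (batch 1) and 0.306 ± 0.285 TPM (batch 2), and MYF5, TNNT2, MYH1, MYH2, MYL1, MYL2 and MYL3 had 0 counts in all libraries. In the leukocyte list 7 of 20 genes were expressed, with the actin bundler LCP1 at 112 ± 2.14 TPM (batch 1) and 102 ± 0.399 TPM (batch 2) and the kinase LYN at 39.01 ± 0.157 TPM (batch 1) and 39.4 ± 1.43 TPM (batch 2) as the highest, while PTPRC, the CD45 gene, was at 0.0101 ± 0.0143 TPM (batch 1) and 0.0102 ± 0.0176 TPM (batch 2) and the T cell gene CD3E was at 0.0463 ± 0.0655 TPM (batch 1) and 0 TPM (batch 2). In the pluripotency list 6 of 20 genes were expressed. LIN28B, which blocks the processing of let-7 precursors, was at 69.5 and 66.1 TPM in batch 1 and 66.4, 66.7 and 64.6 TPM in batch 2, SOX2 at 30.998 and 35.4 TPM in batch 1 and 36.7, 39.3 and 36.3 TPM in batch 2 and the methyltransferase gene DNMT3B at 34.5 ± 0.543 TPM (batch 1) and 33.1 ± 4.15 TPM (batch 2), whereas NANOG, ZFP42, TDGF1, DPPA2 and DPPA5 had 0 counts in all libraries, POU5F1 was at 0.0261 ± 0.0369 TPM (batch 1) and 0.0261 ± 0.0452 TPM (batch 2), and LIN28A at 0.0374 ± 0.05296 TPM (batch 1) and 0 TPM (batch 2).

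Precursor loci of the miRNAs themselves were also read, with the limit that the libraries were made from poly(A) RNA and cannot measure mature miRNAs. The loci of miR-133a and the miR-1 locus MIR1-2 were not analysed here. The hairpin genes MIR1-1, MIR122, MIR302A, MIR372 and MIR373 had 0 counts in all 5 libraries. The host transcript MIR155HG, the precursor of miR-155, held 3 counts, all of them in batch 2 replicate 1, and the host transcript MIR1-1HG held 1 count, in batch 1 replicate 2. Of 2881 annotated miRNA genes 10 exceeded 1 CPM in all libraries. Among them, MIR25 had 48 and 49 counts in batch 1 and 24, 16 and 16 counts in batch 2, and its hairpin lies within an intron of MCM7, on the same strand, a replication gene with 17493 and 18203 counts in batch 1 and 10303, 12694 and 12018 counts in batch 2.

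The machinery that makes and uses miRNAs was in place. Of 14 biogenesis genes 13 were expressed. DROSHA and DGCR8, which cut the primary transcript in the nucleus, were at 118 and 108 TPM in batch 1 and 109, 117 and 111 TPM in batch 2 and at 78.5 and 75.005 TPM in batch 1 and 71.9, 75.7 and 74.8 TPM in batch 2. The exporter XPO5 was at 148 ± 7.59 TPM (batch 1) and 131 ± 2.38 TPM (batch 2), and its partner RAN, which serves all nuclear transport, at 684 ± 1.43 TPM (batch 1) and 719 ± 19.2 TPM (batch 2). DICER1, which cuts the hairpin in the cytoplasm, was at 60.2 and 52.6 TPM in batch 1 and 48.2, 53.98 and 49.6 TPM in batch 2, and its partners TARBP2 and PRKRA were at 53.7 ± 2.35 TPM (batch 1) and 52.3 ± 2.603 TPM (batch 2) and 58.01 ± 0.544 TPM (batch 1) and 64.1 ± 5.097 TPM (batch 2). Among these 7 genes the batch means differed most for XPO5, 1.13-fold, and least for DROSHA, 1.01-fold.

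All 21 genes of the silencing complex and of deadenylation and decapping were expressed, against 65.1% of protein-coding genes. Of the Argonaute genes, AGO2, which encodes the slicing member, was at 45.7 and 32.1 TPM in batch 1 and 23.4, 39.1 and 28.6 TPM in batch 2, AGO1 at 31.1 ± 3.001 TPM (batch 1) and 29.8 ± 3.29 TPM (batch 2), AGO4 at 21.4 ± 1.23 TPM (batch 1) and 20.7 ± 0.343 TPM (batch 2) and AGO3 at 7.898 ± 0.528 TPM (batch 1) and 8.06 ± 0.435 TPM (batch 2). AGO2 was the most variable of them, with the highest value in batch 1 replicate 1 and the lowest in batch 2 replicate 1. TNRC6A, TNRC6B and TNRC6C, the scaffolds that link Argonaute to the deadenylases, were at 51.8 ± 2.19 TPM (batch 1) and 43.6 ± 5.27 TPM (batch 2), 12.2 ± 2.102 TPM (batch 1) and 11.7 ± 2.11 TPM (batch 2) and 12.4 ± 1.28 TPM (batch 1) and 12.7 ± 1.67 TPM (batch 2). The deadenylase scaffold CNOT1 was at 222 ± 28.4 TPM (batch 1) and 177 ± 21.3 TPM (batch 2), its catalytic partners CNOT7 and CNOT8 at 102 ± 1.24 TPM (batch 1) and 99.98 ± 1.85 TPM (batch 2) and 72.02 ± 0.885 TPM (batch 1) and 74.8 ± 1.44 TPM (batch 2), the helicase DDX6 at 63.6 ± 4.93 TPM (batch 1) and 57.4 ± 5.76 TPM (batch 2), the decapping enzyme DCP2 at 48.5 ± 0.282 TPM (batch 1) and 52.9 ± 2.64 TPM (batch 2) and the exonuclease XRN1 at 17.1 ± 2.12 TPM (batch 1) and 15.8 ± 1.4996 TPM (batch 2). The subunit PAN2 of the other deadenylase differed between the batches and is taken up with the batch comparison.

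Signalling pathways were represented at lower levels. All 23 measured Wnt genes were expressed, with a median of 28.7 TPM, near the 29.8 TPM of all expressed genes. β-catenin (CTNNB1) was at 247 ± 3.46 TPM (batch 1) and 231 ± 1.797 TPM (batch 2), the stem cell receptor gene LGR5 at 52.2 ± 2.45 TPM (batch 1) and 44.1 ± 1.17 TPM (batch 2) and the feedback target AXIN2 at 12.01 ± 0.267 TPM (batch 1) and 11.2 ± 1.01 TPM (batch 2). All 22 genes of the TGF-β and BMP pathways were expressed, with the receptor genes TGFBR1 and TGFBR2 at 22.9 ± 0.465 TPM (batch 1) and 22.6 ± 0.579 TPM (batch 2) and 14.1 ± 1.12 TPM (batch 1) and 12.1 ± 0.6099 TPM (batch 2) and the ligand TGFB1 at 56.7 ± 0.432 TPM (batch 1) and 57.9 ± 7.41 TPM (batch 2). In the Hippo pathway 17 of 18 genes were expressed. The coactivators YAP1 and WWTR1 were at 41.6 ± 0.1303 TPM (batch 1) and 41.9 ± 1.697 TPM (batch 2) and 30.9 ± 0.368 TPM (batch 1) and 30.8 ± 0.932 TPM (batch 2), the kinases LATS1 and LATS2 at 30.5 ± 0.705 TPM (batch 1) and 31.3 ± 1.44 TPM (batch 2) and 8.196 ± 0.02803 TPM (batch 1) and 8.304 ± 0.191 TPM (batch 2), and the target genes CCN1, CCN2 and ANKRD1 at 20.9 ± 1.26 TPM (batch 1) and 23.8 ± 1.18 TPM (batch 2), 3.13 ± 0.609 TPM (batch 1) and 2.396 ± 0.792 TPM (batch 2) and 0.595 ± 0.124 TPM (batch 1) and 0.8304 ± 0.187 TPM (batch 2). Among 24 receptor tyrosine kinase genes 19 were expressed, led by EPHB4 at 78.9 ± 0.488 TPM (batch 1) and 73.3 ± 5.895 TPM (batch 2), MET at 68.8 ± 4.82 TPM (batch 1) and 59.97 ± 3.51 TPM (batch 2) and ERBB2 at 48.4 ± 0.669 TPM (batch 1) and 41.6 ± 4.58 TPM (batch 2), with EGFR at 8.37 ± 0.857 TPM (batch 1) and 7.404 ± 1.31 TPM (batch 2). AXL, KDR, PDGFRA and PDGFRB were among the 5 that did not exceed 1 CPM in all libraries. Of the 82 members of these 4 lists that were tested between the batches, 0 had an edgeR adjusted p under 0.05 (9 had an unadjusted p under 0.05, and DESeq2 called 0), against the same 0.938% and 17.1% of all tested genes.

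Antiviral genes were expressed unevenly. Of 28 interferon-response genes 17 were expressed (60.7%, beside 65.1% of protein-coding genes), with a median over all 28 of 5.37 TPM. The factors IRF3 and STAT2, which transmit the signal, were at 68.6 ± 0.573 TPM (batch 1) and 71.6 ± 2.13 TPM (batch 2) and 27.8 ± 2.06 TPM (batch 1) and 25.1 ± 2.94 TPM (batch 2), and the induced genes ISG15 and IFIT1 at 42.8 ± 4.16 TPM (batch 1) and 54.7 ± 4.62 TPM (batch 2) and 7.35 ± 0.7396 TPM (batch 1) and 7.498 ± 1.34 TPM (batch 2). OAS3 was at 6.08 ± 0.173 TPM (batch 1) and 5.53 ± 0.775 TPM (batch 2), whereas its relatives OAS1 and OAS2 were at 0.0389 ± 0.00126 TPM (batch 1) and 0 TPM (batch 2) and 0.02297 ± 0.0325 TPM (batch 1) and 0.01203 ± 0.0208 TPM (batch 2). MX1 was at 1.68 ± 0.229 TPM (batch 1) and 1.602 ± 0.182 TPM (batch 2) and MX2 at 0.0187 ± 0.0264 TPM (batch 1) and 0.0374 ± 0.0647 TPM (batch 2), and IRF7, which amplifies the response, at 0 TPM (batch 1) and 0.0622 ± 0.0539 TPM (batch 2). Of the 18 measured genes of nucleic acid sensing and NF-κB signalling 16 were expressed, including MAVS at 54.7 ± 7.85 TPM (batch 1) and 48.3 ± 9.81 TPM (batch 2) and STING1 at 47.98 ± 3.238 TPM (batch 1) and 44.2 ± 1.57 TPM (batch 2). The DNA sensor CGAS was not, at 0.156 ± 0.164 TPM (batch 1) and 0.403 ± 0.107 TPM (batch 2), and TLR4 had 0 counts in every library.

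The list of widely known targets of each miRNA was then set beside the transcriptome of the empty vector cells and the annotated 3′UTRs. It was drawn up from general knowledge, but with earlier results of these data known. Its counts of expressed targets are therefore a description and not an independent check. Sites were counted as 8mer (a match to bases 2 to 8 followed by A), 7mer-m8 (a match to bases 2 to 8) or 7mer-A1 (a match to bases 2 to 7 followed by A). For miR-1, 11 of 12 listed targets were expressed and all 11 held a site in their longest 3′UTR. TWF1, an actin monomer binding protein, was at 53.1 and 52.9 TPM in batch 1 and 62.9, 54.1 and 53.5 TPM in batch 2, and PTMA, a nuclear acidic protein, was the highest at 764 and 786 TPM in batch 1 and 1035, 858 and 869.8 TPM in batch 2. IGF1 holds an 8mer but was not expressed, at 0 TPM (batch 1) and 0.00878 ± 0.0152 TPM (batch 2), and BDNF, at 0.645 ± 0.0744 TPM (batch 1) and 0.608 ± 0.133 TPM (batch 2), was just over the threshold. For miR-122 all 12 were expressed and 11 held a site, with CCN2 as the exception. The amino acid transporter gene SLC7A1, with 2 8mers, was at 88.6 and 81.4 TPM in batch 1 and 67.3, 89.5 and 78.1 TPM in batch 2, and PKM, ALDOA and CCNG1 all exceeded 500 TPM in every library. For miR-133a all 12 were expressed, but only 6 held a site in the longest 3′UTR, among them FTL, the ferritin light chain, at 1034 and 1166 TPM in batch 1 and 1036, 1040.3 and 1086 TPM in batch 2. For miR-155 9 of 12 were expressed and 8 of these held a site. JARID2, a partner of Polycomb complex 2 with 2 8mers, was at 41.8 and 36.3 TPM in batch 1 and 35.97, 40.5 and 36.7 TPM in batch 2. The leukocyte genes SPI1 and CSF1R were not expressed, at 0.315 ± 0.2404 TPM (batch 1) and 0.2796 ± 0.259 TPM (batch 2) and 0.0924 ± 0.02898 TPM (batch 1) and 0.0517 ± 0.05103 TPM (batch 2). Nor was SOCS1, at 1.69 ± 0.732 TPM (batch 1) and 1.55 ± 0.559 TPM (batch 2). For the miR-302a family, with miR-372 and miR-373, 10 of 12 were expressed and 9 of these held a site. LATS2, with 2 8mers, was at 8.18 and 8.22 TPM in batch 1 and 8.14, 8.25 and 8.51 TPM in batch 2, and the Nodal antagonist genes LEFTY1 and LEFTY2, which both hold an 8mer, were not expressed, at 0.227 ± 0.322 TPM (batch 1) and 0 TPM (batch 2) and 0.128 ± 0.00413 TPM (batch 1) and 0.0623 ± 0.0542 TPM (batch 2).

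Among 9 genes that the study names as targets or as genes downstream of them, levels ran from 3.06 TPM for TAL1 to 35.6 TPM for ZBTB7A. The repressor ZBTB7A was at 33.9 and 34.6 TPM in batch 1 and 36.4, 38.95 and 35.3 TPM in batch 2. The cell cycle factor gene E2F5 was at 35.4 and 35.8 TPM in batch 1 and 40.7, 33.4 and 32.4 TPM in batch 2. FLI1, an ETS factor, was at 5.85 and 5.47 TPM in batch 1 and 5.76, 5.54 and 5.55 TPM in batch 2, and the cytokine receptor gene OSMR at 5.86 and 5.33 TPM in batch 1 and 4.57, 4.503 and 4.69 TPM in batch 2, where the batches did not overlap but the difference, at a log2 fold change of -0.23 (SE 0.1105, adjusted p = 0.301 by edgeR), did not pass the threshold. The list was taken from the study's account of the same libraries, after a filter on low genes, so that it is not an independent sample of targets and its members had to be expressed.

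Over the whole transcriptome, 18389 genes of the table had an annotated 3′UTR (GENCODE version 44 on GRCh37), of which 12180 were expressed. Among these, 3755 (30.8%) held at least 1 site for the seed shared by the miR-302a family, 3164 (25.98%) for miR-122, 3011 (24.7%) for miR-1, 2393 (19.6%) for miR-155 and 2129 (17.5%) for miR-133a. The shares were lower in the 6209 genes that were not expressed, at 17.9%, 18.3%, 16.3%, 11.7% and 11.5% in the same order. The 3′UTRs of expressed genes were also longer, with a median of 1593 bases against 718. Per 1000 bases of 3′UTR, expressed and other genes held 0.210 and 0.182 sites for the miR-302a family, 0.171 and 0.182 for miR-122, 0.146 and 0.160 for miR-1, 0.117 and 0.111 for miR-155, and 0.09415 and 0.103 for miR-133a, so that per length the order of the groups differed between seeds. These shares are counts over the longest annotated 3′UTR of each gene, with no test.

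Weighted by level, genes with a site held less of the transcriptome than their number. They held between 20.5% and 21.0% of the summed TPM of expressed genes with a 3′UTR for the miR-302a family over the 5 libraries, between 17.9% and 18.4% for miR-1, between 17.3% and 17.9% for miR-122, between 12.9% and 13.3% for miR-155, and between 12.2% and 12.5% for miR-133a. The median level of genes with a site was 25.7 TPM for miR-1, against 33.4 TPM for genes without, and in the other families it was between 24.4 and 26.1 TPM, against 33.0 to 34.7 TPM. Genes with a site had longer 3′UTRs, with a median of 3124 bases against 1242 for miR-1. A long annotated 3′UTR can also add to the feature length that divides the counts. Holding a site and having a low TPM are therefore not independent by construction. How much of the lower level of genes with a site comes from this division was not tested. If every transcript of a gene carried its longest annotated 3′UTR, 100 transcripts would hold 29.6 sites for the miR-302a family, 23.95 for miR-122, 22.3 for miR-1, 16.4 for miR-155 and 14.4 for miR-133a, taking the mean of the batch means. Which 3′UTRs the cells used was not measured. In the shortest annotated 3′UTR, 1445 expressed genes held a site for the miR-302a family, against 3755 in the longest. For 8mers alone the order changed, with 3.88 for miR-1, 3.05 for miR-155, 2.66 for miR-122, 2.62 for the miR-302a family and 2.54 for miR-133a. By gene, 4768 expressed genes held no site for any of the 5 seeds (39.1%, median 3′UTR 683 bases, median level 39.3 TPM), and 148 held a site for all 5 (1.22%, median 3′UTR 8322 bases, median level 17.7 TPM).

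**Figure D3:**
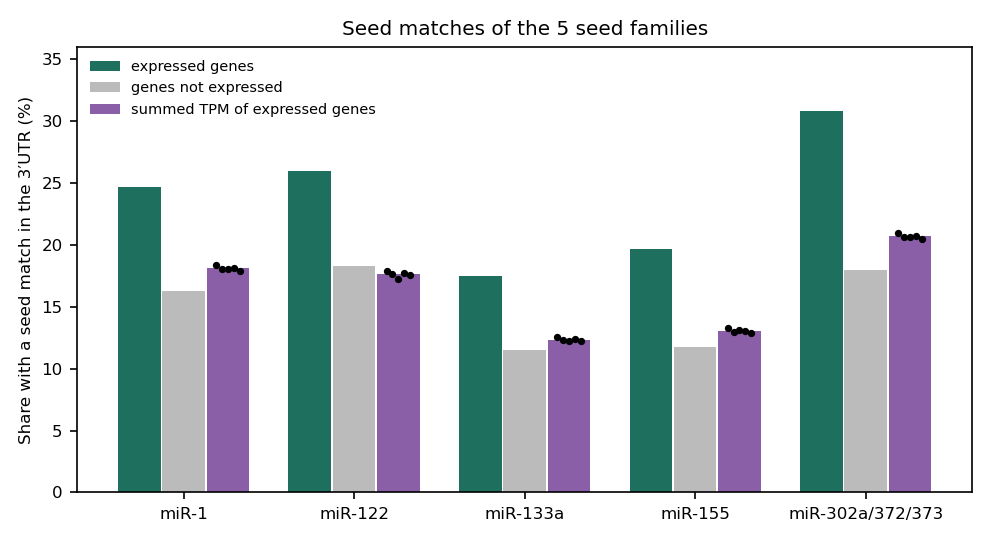
Share in percent with at least 1 seed match (8mer, 7mer-m8 or 7mer-A1) in the longest annotated 3′UTR for each of the 5 seed families, as a share of the 12180 expressed genes, of the 6209 genes not expressed, and of the summed TPM of expressed genes, where black points are the 5 libraries. The share of expressed genes lies between 17.5% and 30.8%, and for every family it is above both other bars.

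The highest genes by level that held an 8mer in the longest annotated 3′UTR were then listed for each seed. Levels are of genes, and whether their transcripts used that 3′UTR was not measured. Some sites lay far along it, as for RPL37 at base 6018 of 7242. Genes of 1 chromosome were passed over by the naming rule. For each family, the 2 expressed genes with the highest TPM among the rest that held an 8mer in the longest 3′UTR are printed with the positions of the 8mer on GRCh37 and up to 11 bases on each side, read along the transcript, with the 8mer in capitals.
NCL, miR-1, chr2:232319805-232319812, minus strand: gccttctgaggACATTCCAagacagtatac
SRSF9, miR-1, chr12:120899750-120899757, minus strand: gctcagaatctACATTCCAgattgaggatt
PKM, miR-122, chr15:72491464-72491471, minus strand: tcctgcagcaaACACTCCAccctccacctt
YBX1, miR-122, chr1:43168986-43168993, plus strand: gctgccccgaaACACTCCAgatcatcctgg
FTL, miR-133a, chr19:49470106-49470113, plus strand: taacaagccttGGACCAAAtggaaataaag
EIF4A1, miR-133a, chr17:7482147-7482154, plus strand: cctcatttgctGGACCAAAtctggagggag
HNRNPU, miR-155, chr1:245013618-245013625, minus strand: tttgtaaaataAGCATTAAaagtactttgt
TOMM20, miR-155, chr1:235274925-235274932, minus strand: tgtgaaaactgAGCATTAAaggttttgatt
PAICS, miR-302a family, chr4:57328119-57328126, plus strand: gtaaaagacaaAGCACTTAggtaaagcttc
GLUL, miR-302a family, chr1:182352049-182352056, minus strand: ctgcccaaagcAGCACTTAtaaatcagcct
NCL encodes nucleolin, which acts in ribosome biogenesis, and its transcript was at 880.0 ± 5.19 TPM (batch 1) and 1024 ± 8.56 TPM (batch 2). The splicing factor gene SRSF9 was at 724 ± 14.5 TPM (batch 1) and 794 ± 26.3 TPM (batch 2). In the miR-122 family PKM and YBX1, an RNA-binding protein, were at 1517 ± 16.1 TPM (batch 1) and 1476 ± 95.6 TPM (batch 2) and 1193 ± 4.23 TPM (batch 1) and 1369 ± 56.03 TPM (batch 2). In the miR-133a family FTL and the helicase gene EIF4A1 were at 1100.0 ± 93.1 TPM (batch 1) and 1054 ± 27.8 TPM (batch 2) and 945 ± 13.3 TPM (batch 1) and 889 ± 7.39 TPM (batch 2). HNRNPU, an RNA- and chromatin-binding protein at 716 ± 31.4 TPM (batch 1) and 733 ± 46.8 TPM (batch 2), was among the 5 highest for miR-1, miR-122 and miR-155, with a different 8mer for each. TOMM20, a receptor of the mitochondrial import machinery, was at 650.1 ± 6.13 TPM (batch 1) and 666 ± 40.6 TPM (batch 2). PAICS, an enzyme of purine synthesis, and GLUL, glutamine synthetase, held 8mers for both miR-155 and the miR-302a family, at 397 ± 0.479 TPM (batch 1) and 366 ± 8.08 TPM (batch 2) and 332 ± 2.83 TPM (batch 1) and 339.9 ± 3.87 TPM (batch 2). The other genes among the 5 highest were HNRNPU, PPIB and CNBP for miR-1, ALDOA, HNRNPU and CCNG1 for miR-122, SLC25A3, UBA2 and PTBP1 for miR-133a, PAICS, GNAS and GLUL for miR-155, and PNN, RTRAF and RPL37 for the miR-302a family, where RPL37 was at 277 ± 8.604 TPM (batch 1) and 278 ± 21.03 TPM (batch 2). By level among all genes, the highest gene with an 8mer in its longest 3′UTR, outside the chromosome passed over, stood at rank 46 for miR-122 and at rank 374 for the miR-302a family.

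The empty vector cells of batch 2 were compared with those of batch 1 by edgeR's quasi-likelihood test, since each miRNA was read against the control of its own batch. Culture, transduction, library preparation and sequencing may all differ between the batches and cannot be told apart. Of 13853 genes tested, 130 (0.938%) had an adjusted p under 0.05, of which 103 (0.744%) were higher in batch 2 and 27 (0.195%) lower. Only 8 of these differed by at least 1 on the log2 scale, and the median absolute log2 fold change over all tested genes was 0.106. At an unadjusted p under 0.05 there were 2372 genes (17.1%). The number of calls rested on single libraries: it was 4 without batch 1 replicate 1, 6 without batch 1 replicate 2, 10 without batch 2 replicate 3, 455 without batch 2 replicate 1 and 504 without batch 2 replicate 2, and it was 6 where the spread was estimated from all 24 libraries.

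**Figure D4:**
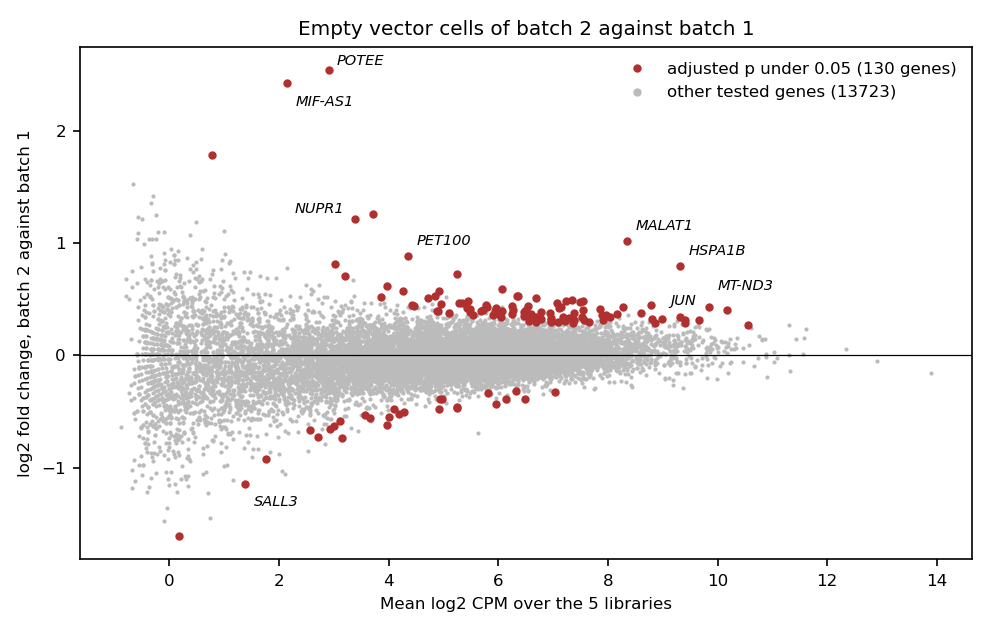
log2 fold change of batch 2 against batch 1 for each of 13853 tested genes (y axis) against mean log2 CPM (x axis), with the 130 genes at an edgeR adjusted p under 0.05 in red and the other 13723 in grey. Most genes lie near 0, and POTEE and MIF-AS1 lie highest, at 2.54 and 2.42.

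The 2 genes that were called under each of the 11 other fits and omissions were POTEE and MIF-AS1. POTEE (ENSG00000188219.10, GRCh37 chromosome 2, 131967109 to 132022851, plus strand), a member of the POTE ankyrin family with an actin-like domain and close copies elsewhere in the genome, was at 2.34 and 1.83 CPM in batch 1 and 11.9, 13.1 and 11.3 CPM in batch 2. Its log2 fold change was 2.54 (SE 0.162, adjusted p = 2.68e-06 by edgeR), and its span overlaps PLEKHB2 on the same strand. MIF-AS1 (ENSG00000218537.1, chromosome 22, 24236613 to 24241117, minus strand), a noncoding RNA antisense to the cytokine gene MIF, was at 1.05 and 1.59 CPM in batch 1 and 5.51, 7.71 and 8.02 CPM in batch 2. Its log2 fold change was 2.42 (SE 0.232, adjusted p = 0.000195 by edgeR). Every batch 2 library lay above both batch 1 libraries for each gene, as it did by the naming rule for all 10 genes named here as higher.

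Of the other genes named as higher in batch 2, NUPR1, a stress-induced chromatin protein, was at 6.15 and 5.95 CPM in batch 1 and 12.7, 14.4 and 15.04 CPM in batch 2, a log2 fold change of 1.22 (SE 0.124, adjusted p = 0.000319 by edgeR). HSPA1B, an inducible HSP70 gene, was at 428 and 461 CPM in batch 1 and 803, 743 and 766 CPM in batch 2, a log2 fold change of 0.79 (SE 0.0666, adjusted p = 5.25e-05 by edgeR), while its near-identical copy HSPA1A was at 1.42 ± 0.0884 TPM (batch 1) and 0.973 ± 0.286 TPM (batch 2). MALAT1, an abundant nuclear noncoding RNA, was at 187 and 219 CPM in batch 1 and 597, 321 and 318 CPM in batch 2, so that batch 2 replicate 1 lay far above the other batch 2 libraries, and its log2 fold change was 1.02 (SE 0.203, adjusted p = 0.0363 by edgeR). Without that library it was 0.65, and DESeq2 did not call MALAT1. PET100, an assembly factor of cytochrome c oxidase, was at 13.4 and 14.4 CPM in batch 1 and 27.3, 23.99 and 25.8 CPM in batch 2, a log2 fold change of 0.88 (SE 0.0973, adjusted p = 0.000685 by edgeR). HMGN5, a nucleosome-binding protein, was at 26.5 and 29.05 CPM in batch 1 and 57.2, 39.9 and 41.1 CPM in batch 2, again with the highest value in batch 2 replicate 1. The immediate early gene ARC, the cytokine receptor gene IL6R and the zinc finger gene ZNF486 were higher by 0.70, 0.61 and 0.81 on the log2 scale.

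The 10 genes named as lower in batch 2 were given by the same rule. SALL3, a transcription factor gene related to SALL1, was at 3.58 and 3.37 CPM in batch 1 and 0.995, 2.08 and 1.56 CPM in batch 2, a log2 fold change of -1.15 (SE 0.244, adjusted p = 0.0443 by edgeR), at levels of only a few CPM. FREM1, a basement membrane protein, was at 4.34 and 4.36 CPM in batch 1 and 2.83, 2.01 and 2.06 CPM in batch 2, a log2 fold change of -0.93 (SE 0.195, adjusted p = 0.0425 by edgeR). The GABA-B receptor gene GABBR2 was at 7.34 and 7.07 CPM in batch 1 and 4.21, 4.56 and 4.83 CPM in batch 2, the semaphorin receptor gene PLXNC1 at 10.01 and 8.76 CPM in batch 1 and 5.66, 6.23 and 5.96 CPM in batch 2, and TENM4, a teneurin, at 9.77 and 9.65 CPM in batch 1 and 6.05, 6.43 and 6.32 CPM in batch 2. MME, the endopeptidase neprilysin, which kidney epithelium carries, was at 14.5 and 13.8 CPM in batch 1 and 10.1, 8.91 and 10.4 CPM in batch 2, a log2 fold change of -0.53 (SE 0.112, adjusted p = 0.0425 by edgeR). The call of MME was lost in 6 of the 11 alternatives, among them the DESeq2 Wald test. The zinc finger factor ZNF521, the lysosomal channel TPCN2, the transporter MFSD4B and NICN1 were lower too, with log2 fold changes of -0.55, -0.56, -0.62 and -0.74, and NICN1 overlaps AMT on the same strand. Without batch 1 replicate 1 the log2 fold change of MFSD4B was -0.37 and not called. Each batch 2 library lay below both batch 1 libraries for every one of the 10, which the naming rule required. Of the 20 genes named in either direction, edgeR called 4 without batch 1 replicate 1, 6 without batch 1 replicate 2 and 7 without batch 2 replicate 3, and DESeq2 did not call MALAT1, MME and GABBR2 and gave no adjusted p for SALL3 and FREM1.

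**Figure D5:**
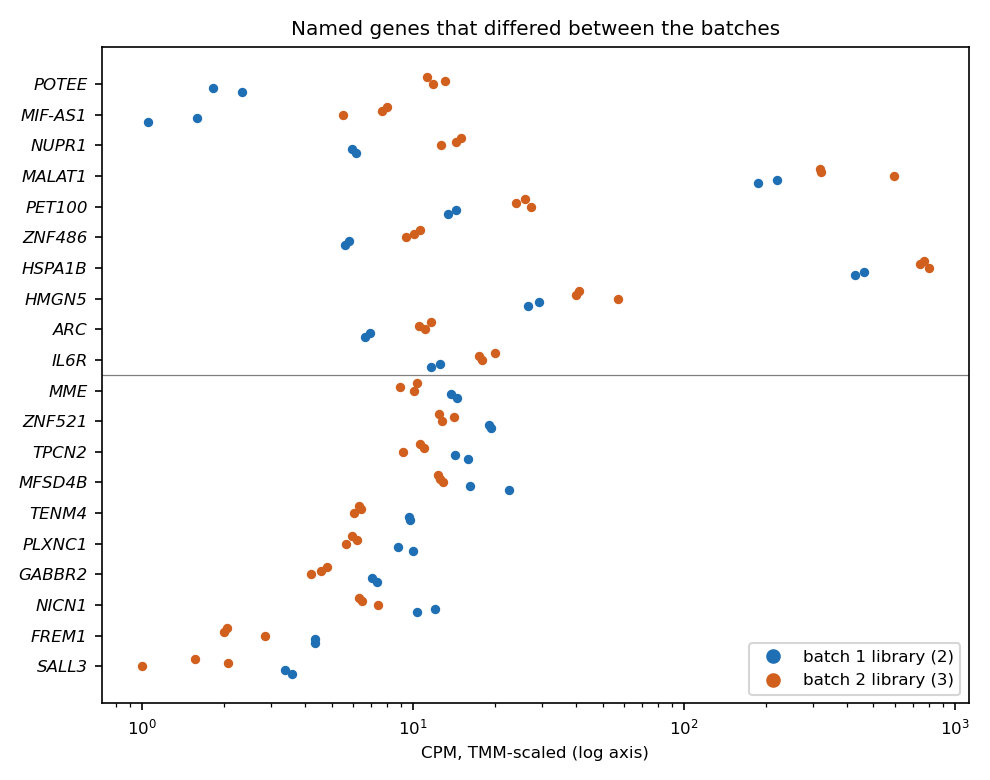
CPM (TMM-scaled, log axis) of the 20 named genes in each of the 5 libraries, batch 1 in blue and batch 2 in orange, with the 10 genes higher in batch 2 above the line and the 10 lower below it. By the rule that named them the batches do not overlap, and MALAT1 and HMGN5 have their highest value in batch 2 replicate 1.

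Few genes of the lists differed between the batches. Of 561 distinct list genes tested 7 were called, 6 higher and 1 lower, which is 1.25% against 0.938% of all tested genes. PAN2, the catalytic subunit of a poly(A) nuclease that acts with the silencing complex, was lower in batch 2, at 87.4 and 75.7 CPM in batch 1 and 63.5, 61.5 and 61.2 CPM in batch 2 and a log2 fold change of -0.39 (SE 0.0756, adjusted p = 0.0329 by edgeR). JUN was at 438 and 444 CPM in batch 1 and 547, 554 and 553 CPM in batch 2, a log2 fold change of 0.32 (SE 0.0604, adjusted p = 0.0289 by edgeR). The ribosomal protein genes RPS14 and RPL28 were higher by 0.40 and 0.28 on the log2 scale, TNNT1 by 0.44, HSPA1B as above, and MT-ND3, a subunit of complex I, by 0.43, with its highest value in batch 2 replicate 1. Of these 7 genes only HSPA1B (1 of 7) was called without batch 1 replicate 1, without batch 1 replicate 2 or without batch 2 replicate 3, and 0 in the fit of all 24 libraries, while DESeq2 called all 7. As a group, the 44 genes of the large ribosomal subunit had a median log2 fold change of 0.11, with 1 gene called by edgeR (17 at an unadjusted p under 0.05, and 4 called by DESeq2). The 24 cholesterol genes had one of -0.07, with 0 called by edgeR (5 at an unadjusted p under 0.05, and 1 called by DESeq2). Over all tested genes the median was -0.01, and 17.1% had an unadjusted p under 0.05. Other lists moved as far, with medians of 0.19 for the mitochondrial genes, 0.12 for the chaperones and -0.12 for the mesenchymal genes.

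The differences moved with the length of the feature. The 103 higher genes had a median feature length of 1867 bases and the 27 lower genes one of 5761 bases, against 3615 bases over all tested genes. In 4 equal bins by length, the median log2 fold change was 0.04 in the shortest, 0.01 in the second, -0.02 in the third and -0.05 in the longest. Against the mean of all 5 libraries, the median deviation of the longest bin exceeded that of the shortest by 0.114 in batch 1 replicate 1 and by 0.0418 in batch 2 replicate 2, and fell below it in the others, with differences of -0.0143 in batch 1 replicate 2, -0.0789 in batch 2 replicate 1 and -0.0779 in batch 2 replicate 3. The libraries of a batch thus differed among themselves in this respect, and its part in the batch differences was not tested.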

How the data were processed

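RNA-seq libraries of poly(A) RNA (1000 ng) were made by the authors from 24 cultures, and the 5 of the empty vector are described here. The authors clipped the reads, aligned them to hg19 with TopHat2 2.1.1 and counted reads per gene over exons, by strand and above a minimum mapping quality, with featureCounts. The deposited tables hold these raw counts per gene for each batch, and the feature length in bases, for 29794 genes. The deposited tables of comparisons by the authors (edgeR 3.24.3), which hold fold changes and p-values, were not used, and the number of per-sample columns left unmapped was 0.

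Symbols and coordinates were taken from GENCODE version 44 on GRCh37 (hg19 shares its primary sequence), and 28543 genes matched. TPM was computed from the deposited counts and feature lengths, and a level is the mean of the 2 batch means. Of the list members 19 did not match a gene and were not analysed here, among them LHX1, NEFL and 5 mitochondrial genes. The counts of batch 2 were compared with those of batch 1 in R 4.3.3 with edgeR 4.0.16 (filterByExpr with a minimum count of 10, TMM, quasi-likelihood fit of the 5 libraries, prior count 0.125), two-sided, with Benjamini-Hochberg adjustment over all genes tested and a threshold of 0.05. The standard error was taken as the size of the log2 fold change divided by the root of F. The fit was tested on simulated data.

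Seed matches were counted in the longest annotated 3′UTR of each gene (at least 20 bases). Alternatives were DESeq2 1.42.0, other filters, thresholds, UTRs and site types, a replicate block, a fit of all 24 libraries and omission of each library. Genes were named by rule: the 20 highest by TPM, the highest and the undetected members of each list with short lists in full, the 10 highest and 10 lowest called genes between batches with an average log2 CPM from 1 upwards and no overlap, called list members, and the 5 highest genes with an 8mer per seed, passing over chromosome 8. Further list members were named for their role. Members and lists were chosen with earlier results of these data known.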

Additional observations from a re-analysis of the deposited data

How the results depend on the processing

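The number of genes that differed between the batches was the least stable result. It was 130 (103 higher and 27 lower in batch 2) and stayed within 1.5 times with DESeq2 size factors or a filter of more than 1 CPM, and without a filter 46 genes were lower. It was 222 (186 higher) with the DESeq2 Wald test, 6 (5 higher, 1 lower) in 1 fit of all 24 libraries and 8 (6 higher, 2 lower) with an absolute log2 fold change of at least 1. Without each library in turn it ranged from 4 to 504 (4 to 317 higher and 0 to 187 lower), the 4, 6 and 10 calls being without batch 1 replicate 1, batch 1 replicate 2 and batch 2 replicate 3. The share of lower genes among the calls was 20.8% and ranged up to 37.1% without batch 2 replicate 2. With the replicate number as a block it was 69 (48 higher), 47 of them shared with the fit without it. The numbers are only names here: libraries of the same number correlated at -0.136 and -0.163 in their deviations from the batch means, and replicate 3 of batch 2 has no counterpart. The log2 fold changes of the 20 named genes kept their direction in all 217 alternatives and passed the threshold in 148. The cause of these changes was not tested. A fit without a library also had fewer samples, and the number of calls fell without some libraries and rose without others. In the lowest of 4 equal bins by mean CPM 5 genes were called higher and 9 lower, and in the highest 60 and 3.

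The number of expressed genes stayed within 1.5 times of 12812 under every alternative run. By TPM of at least 1 in every library, 36 of 38 lists kept their count within 1.5 times, and the adrenal and histone lists rose to 2 and 8. The number of expressed genes with a seed match followed the definition of a site and of the 3′UTR. For miR-1, miR-122, miR-133a, miR-155 and the miR-302a family it was 735, 449, 414, 632 and 543 for 8mers alone, and 1218, 1252, 881, 907 and 1445 in the shortest annotated 3′UTR. For 8mer or 7mer-m8 sites it was 1806, 1176 and 1120 for miR-1, miR-122 and miR-133a.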
